A study of Mus musculus with 20 samples.

Results

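The genes described here are 10 transcriptional targets of the tumor suppressor p53, listed together as arrest and feedback genes: *Cdkn1a*, *Ccng1*, *Zmat3*, *Phlda3*, *Mdm2*, *Aen*, *Trp53inp1*, *Sesn1*, *Sesn2* and *Btg2*. The name of the list is loose, since *Aen*, for example, acts in apoptosis. The genes were chosen with earlier results of these data known, so counts over them describe a list that these data informed. All of their probes were taken, whatever their values, through the RefSeq accession given for each spot. They numbered 18 of the 41174 probes on the array. All 18 were above the presence limit, as were 27346 probes in all, and 17 of the 18 were well above background in liver on 18 or more of the 20 arrays. The exception was the dimmer *Aen* probe, which was so on 3 arrays.

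The samples were livers of 20 male Muta™Mouse animals aged 25 weeks, labelled transgenic mouse strain 40.6, a strain that carries a *lacZ* reporter for mutations in every cell, controls included. Mice received benzo[a]pyrene (BaP), a polycyclic aromatic hydrocarbon whose metabolites form DNA adducts, in olive oil by daily oral gavage over 28 days at 25, 50 or 75 mg/kg/day, and controls received olive oil alone. There were 5 mice in each of the 4 groups (replicates 1 to 5 control, 6 to 10 at 25, 11 to 15 at 50 and 16 to 20 at 75 mg/kg/day), and all were killed 3 days after the last dose. Each array compared liver RNA of 1 mouse, in Cyanine 5, with a universal reference RNA from 11 mouse cell lines, in Cyanine 3, so every level below is a log2 ratio of liver over reference and says nothing of 1 probe against another.

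The p53 protein is stabilized after DNA damage and switches on genes that bear its binding site. Among them *Cdkn1a* encodes an inhibitor of cyclin-dependent kinases that halts the cell cycle, while *Mdm2* encodes the ubiquitin ligase that degrades p53 and so closes a feedback loop. In adult liver most hepatocytes are out of the cell cycle, and p53 targets there are a common readout of genotoxic exposure.

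Hepatocyte markers gave strong signals in every library, with *Alb* and *Apoa1* well above background on 20 of 20 arrays, although a source label names lungs. Of the lung epithelium markers with a named probe, the surfactant genes *Sftpb* and *Sftpc* were well above background on 0 arrays, *Foxj1*, *Cldn18* and *Ager* on 1 each, *Scgb1a1* on 5, and *Sftpa1* on 16 arrays by 1 probe (mean log2 liver intensity 6.97) and on 0 by the other (6.63). Per array, 51.9% to 67.5% of spots stood well above background for liver, the highest value being that of control replicate 4 against 51.9 to 54.3% in the other controls. Slides 1 to 3 each held 1 array of every group, while slides 4 and 5 held 25 and 75 mg/kg/day and slide 6 held controls and 50 mg/kg/day. All arrays at 25 mg/kg/day sat at position 2 of a slide and all at 75 mg/kg/day at position 4. Controls sat at position 1 except replicate 2 (position 2), and 50 mg/kg/day at position 3 except replicate 13 (position 4). Dose and position thus part only in replicates 2 and 13 and cannot be well told apart. The reference channel alone differed between 75 mg/kg/day and control by -0.20 to 0.15 on the log2 scale over the 18 probes.

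Promoter windows, from 250 bases before to 50 after a transcript start in RefSeq (GRCm38.p6), were at hand for 8 of the 10 genes, all but *Zmat3* and *Trp53inp1*, and are shown because p53 acts by binding DNA. The p53 decamer consensus, 10 bases long and alike on both strands, matched in 6 of 11 windows, which cover 5 of the 8 genes, against 8.36% of 32851 windows of the same length. Both *Aen* windows overlap and share 1 match. A pair of such decamers at most 13 bases apart was found in 1 member window, upstream of *Cdkn1a*, and in 24 windows (0.0731%) overall. The 5 windows below are a choice from the 11, and all but that of *Phlda3* hold a match. Decamer matches are in capitals and positions are counted from the transcript start.
Cdkn1a, chr17:29090729-29091028, plus strand, decamers from positions -73 and -51: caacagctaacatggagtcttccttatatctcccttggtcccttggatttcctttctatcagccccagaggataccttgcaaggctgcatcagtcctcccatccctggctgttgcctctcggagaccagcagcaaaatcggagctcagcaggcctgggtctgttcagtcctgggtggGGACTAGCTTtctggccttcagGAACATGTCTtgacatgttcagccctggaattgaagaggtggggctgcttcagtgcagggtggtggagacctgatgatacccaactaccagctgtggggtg
Aen, chr7:78895677-78895976, plus strand, decamer from position 11: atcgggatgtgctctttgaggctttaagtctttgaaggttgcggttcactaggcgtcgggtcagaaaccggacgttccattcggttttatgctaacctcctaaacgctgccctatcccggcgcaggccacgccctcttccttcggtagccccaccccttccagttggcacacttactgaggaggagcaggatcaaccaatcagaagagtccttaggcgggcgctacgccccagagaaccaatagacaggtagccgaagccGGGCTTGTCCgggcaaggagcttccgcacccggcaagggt
Ccng1, chr11:40755237-40755536, minus strand, decamer from position -185: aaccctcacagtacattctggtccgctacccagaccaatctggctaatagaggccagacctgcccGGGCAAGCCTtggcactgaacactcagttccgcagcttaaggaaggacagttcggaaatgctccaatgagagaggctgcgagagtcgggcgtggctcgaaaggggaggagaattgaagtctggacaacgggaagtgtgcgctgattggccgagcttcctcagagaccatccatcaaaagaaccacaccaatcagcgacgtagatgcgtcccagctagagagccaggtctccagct
Mdm2, chr10:117710709-117711008, minus strand, decamer from position -186: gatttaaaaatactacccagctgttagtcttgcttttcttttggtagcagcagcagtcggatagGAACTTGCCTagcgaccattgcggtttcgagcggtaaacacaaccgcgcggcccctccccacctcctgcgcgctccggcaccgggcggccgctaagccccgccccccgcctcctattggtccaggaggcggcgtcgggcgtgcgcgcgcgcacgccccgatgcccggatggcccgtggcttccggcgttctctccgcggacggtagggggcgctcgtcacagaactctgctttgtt
Phlda3, chr1:135765835-135766134, plus strand, no match: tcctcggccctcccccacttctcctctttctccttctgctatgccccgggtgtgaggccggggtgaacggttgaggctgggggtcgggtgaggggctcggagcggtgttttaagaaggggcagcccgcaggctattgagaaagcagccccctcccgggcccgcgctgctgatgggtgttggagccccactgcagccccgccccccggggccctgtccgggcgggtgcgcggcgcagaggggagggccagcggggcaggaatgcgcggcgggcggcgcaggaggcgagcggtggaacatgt
The *Cdkn1a* window is that of the upstream of 2 annotated starts, which lie 2790 bases apart, and the window of the downstream start held no match. A second *Sesn1* start (window chr10:41887189-41887488) held a match as well, and the windows of *Sesn2* and *Btg2* held none. A match is a run of letters and was not tested for binding.

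*Cdkn1a*, *Aen*, *Phlda3* and *Zmat3* rose in the livers of mice given 75 mg/kg/day BaP, 3.03-, 1.74-, 1.92- and 1.70-fold above control. A probe was called when its adjusted p was under 0.05 (limma, Benjamini-Hochberg over all present probes) and its fold change over 1.5, and 4 of the 18 probes were called higher at this dose and 0 lower, where 0.135% of all present probes were called. At an unadjusted p under 0.05, 10 of the 18 probes differed, beside 11.2% of all probes. The log2 fold change was above 0 for 16 of 18 probes (50.6% of all probes), with a median of 0.49 against 0.00 over all present probes. At 25 and 50 mg/kg/day 0 member probes were called, as were 0% of all probes. At an unadjusted p under 0.05, these doses gave 0 and 5 member probes, beside 7.81% and 6.7% of all probes, and a log2 fold change above 0 in 7 and 16 of 18, beside 50.3% and 49.2%. The calls at 75 mg/kg/day rest on the spread shared by the 4 groups. When the control and 75 mg/kg/day groups were fitted alone, 0 member probes and 5 probes in all were called, with adjusted p from 0.0609 for *Cdkn1a* to 0.121 for *Phlda3*.

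**Figure D1:**
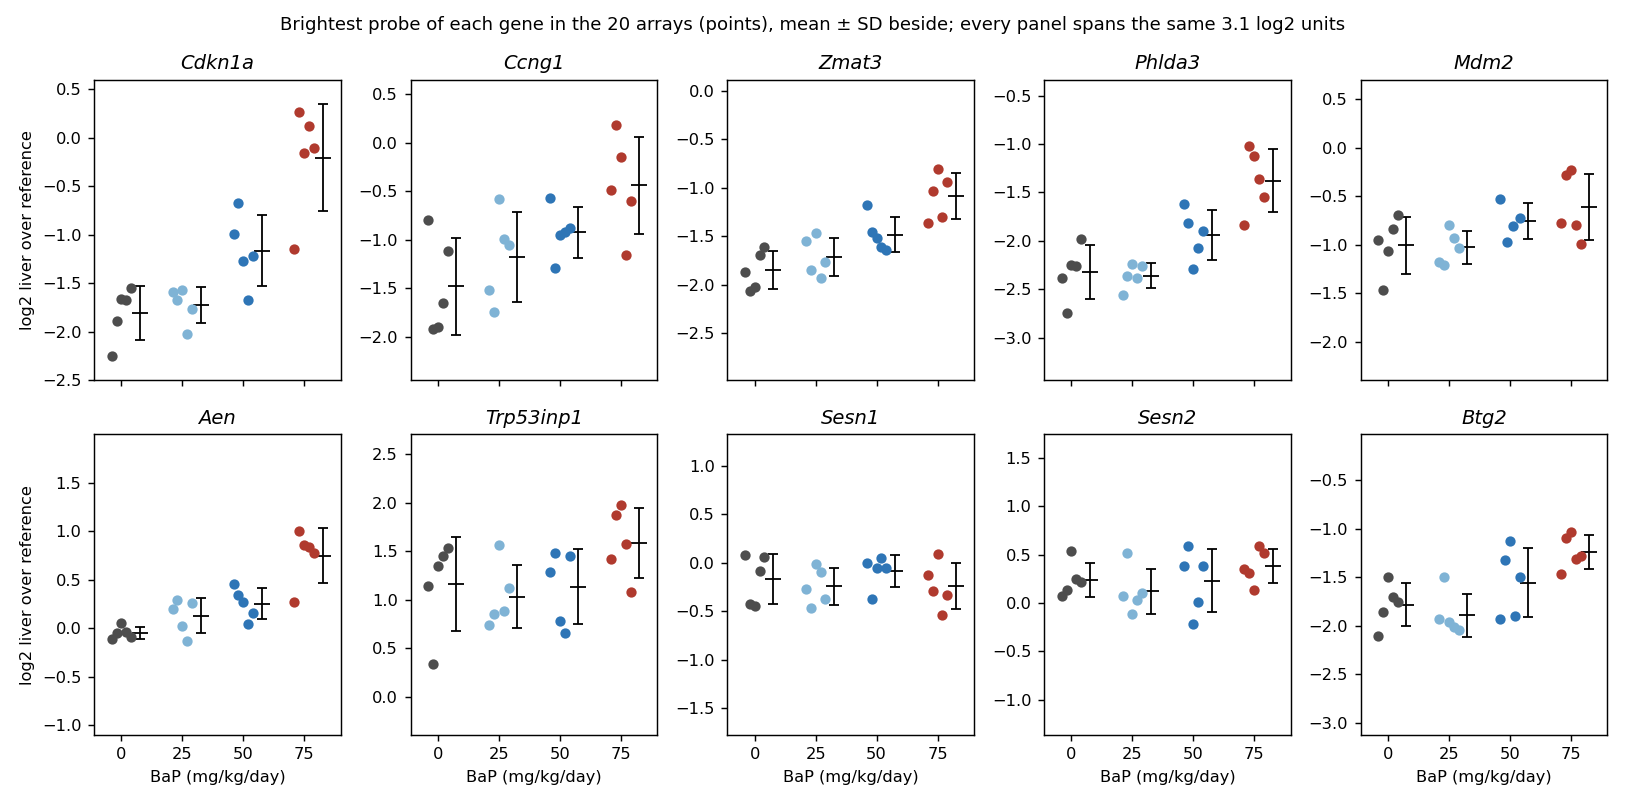
Log2 ratio of liver over reference for the brightest probe of each of the 10 genes (vertical axes, each spanning the same number of log2 units) against BaP dose (horizontal axes), 1 point per mouse in order of replicate number, with the group mean and SD beside the points. The 75 mg/kg/day points of *Cdkn1a*, *Zmat3*, *Phlda3*, *Aen* and *Btg2* all lie above all control points, and replicate 16, the leftmost of that group, is the lowest of the 5 in each of these panels.

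*Cdkn1a* (chr17:29090979-29100722, the RefSeq gene span in GRCm38.p6, as for the other genes) encodes the kinase inhibitor that carries out much of the p53-dependent arrest in G1. Its log2 ratios were -2.25, -1.89, -1.66, -1.67 and -1.55 in the control mice and -1.15, 0.27, -0.15, 0.12 and -0.11 at 75 mg/kg/day. The groups did not overlap, although replicate 16 lay far closer to the controls than the other 4 mice at its dose. The log2 fold change was 1.60 (SE 0.22, adjusted p = 0.00148, 95% confidence interval 1.15 to 2.05). At 50 mg/kg/day the ratios were -0.997, -0.67, -1.27, -1.67 and -1.22, so that 4 of 5 mice lay above every control, with a mean log2 difference of 0.64 (SE 0.22) that missed the threshold (adjusted p = 0.676). At 25 mg/kg/day all 5 mice, from -2.02 to -1.57, fell within the range of the controls (log2 fold change 0.08, 95% confidence interval -0.37 to 0.54). The probe was printed 10 times per array. Its spots differed within an array by an SD of 0.0765 (median over 20 arrays). The SD between mice, each on its own array, was larger, at 0.277 in controls and 0.554 at 75 mg/kg/day. In the liver channel alone, without the reference, the log2 fold change was 1.47 and just missed the threshold (adjusted p = 0.0562).

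*Aen* (chr7:78895927-78911209) encodes an exonuclease that p53 induces and that acts in apoptosis. Its brighter probe read -0.12, -0.05, 0.05, -0.04 and -0.09 in controls and 0.27, 1.00, 0.86, 0.84 and 0.77 at 75 mg/kg/day. The control mice were close to each other (SD 0.0641, n = 5), and every mouse at the highest dose lay above them. The log2 fold change was 0.80 (SE 0.12, adjusted p = 0.00413). At 50 mg/kg/day it was 0.30 (adjusted p = 0.698), with 4 of 5 mice above all controls, and at 25 mg/kg/day 0.18 (adjusted p = 0.729), with 3 of 5. The dimmer *Aen* probe gave 0.21 (adjusted p = 0.545) at 75 mg/kg/day and correlated with the brighter probe at r = 0.587 over the 20 arrays.

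*Phlda3* (chr1:135766085-135769134) encodes a PH domain protein that holds back the kinase Akt. Control mice read -2.38, -2.75, -2.25, -2.26 and -1.98, and mice at 75 mg/kg/day -1.83, -1.02, -1.12, -1.37 and -1.55. The groups were separate by a small margin between control replicate 5 and replicate 16. The log2 fold change was 0.94 (SE 0.16, adjusted p = 0.00887), and it was 0.38 (adjusted p = 0.708) at 50 and -0.04 (adjusted p = 0.967) at 25 mg/kg/day.

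*Zmat3* (chr3:32334792-32365665) encodes a zinc finger RNA-binding protein. Control mice read -1.87, -2.06, -2.02, -1.69 and -1.61, and mice at 75 mg/kg/day -1.36, -1.03, -0.81, -1.30 and -0.94. The 2 groups did not overlap, with a mean log2 difference of 0.76 (SE 0.13, adjusted p = 0.0109), the smallest of the 4 that were called. It was 0.37 (adjusted p = 0.676) at 50 mg/kg/day, where 3 of 5 mice lay above all controls, and 0.14 (adjusted p = 0.804) at 25 mg/kg/day.

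*Btg2* (chr1:134074865-134079155), an antiproliferative gene of the BTG/TOB family, had 3 probes. The brightest read -2.10, -1.85, -1.50, -1.70 and -1.76 in controls and -1.47, -1.09, -1.04, -1.31 and -1.28 at 75 mg/kg/day. All 5 mice lay above all controls, which 0.936% of present probes also did and which 5 of the 18 member probes did. Its change of 0.55 (log2, SE 0.15, adjusted p = 0.191) missed both thresholds, and the other 2 probes gave 0.72 (SE 0.29, adjusted p = 0.358) and 0.44 (SE 0.18, adjusted p = 0.375). In these 2 probes, which correlated with each other at r = 0.907 and with the brightest at 0.694 and 0.646, 2 of 5 exposed mice lay above all controls. Those mice were replicates 19 and 20, on slides 5 and 4, which held no controls. Both probes had higher medians on slides 4 to 6 (-0.20 and -0.32) than on slides 1 to 3 (-1.14 and -0.73).

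*Ccng1* (chr11:40748552-40755309), which encodes cyclin G1, a partner of protein phosphatase 2A that bears on Mdm2, had mean ratios 2.05- and 2.28-fold above control at 75 mg/kg/day on its 2 probes without passing the test. The brighter probe read -0.80, -1.92, -1.90, -1.66 and -1.12 in controls and -0.49, 0.18, -0.14, -1.15 and -0.60 at 75 mg/kg/day. Replicate 19 fell among the controls, whose own spread was wide (SD 0.50, n = 5). The mean difference was 1.04 (log2, SE 0.26, adjusted p = 0.131) for this probe and 1.19 (SE 0.28, adjusted p = 0.112) for the other, and the probes correlated at r = 0.784. With slide as a block the brighter probe was called (1.13, adjusted p = 0.0236), as it was in the liver channel alone (1.01, adjusted p = 0.0244) and without replicate 19 (1.22, adjusted p = 0.0413). The other was called without control replicate 4 (1.43, adjusted p = 0.0266), the control array with the most spots above background.

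*Mdm2* (chr10:117688875-117710758), the negative regulator of p53, gave different values on its 2 probes. The brighter probe gave 0.39 on the log2 scale (SE 0.16, adjusted p = 0.365) at 75 mg/kg/day, with 2 of 5 mice above all controls. The dimmer, printed 10 times per array, had 0.01 (SE 0.12, adjusted p = 0.993, 95% confidence interval -0.25 to 0.27). Its replicate spots agreed to an SD of 0.0780 (median over arrays), and the 2 probes correlated at r = 0.125. At 50 mg/kg/day the values were 0.25 (n = 4 there, since replicate 13's spot was marked as an outlier and left out) and 0.20. On the dimmer probe all 5 mice at 50 lay above all 5 at 25 mg/kg/day, as 1.03% of present probes did, with a log2 difference of 0.33 (SE 0.12, adjusted p = 0.51).

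*Trp53inp1* (chr4:11156441-11174379), a nuclear protein that promotes p53 activity and autophagy, did not pass the test on either probe. The brighter probe read 1.14, 0.34, 1.35, 1.46 and 1.53 in controls and 1.43, 1.88, 1.98, 1.57 and 1.08 at 75 mg/kg/day (log2 fold change 0.42, SE 0.23, adjusted p = 0.499). The groups overlapped, with 3 of 5 exposed mice above all controls. The dimmer probe separated the slides and not the doses. It read between -0.14 and 1.67 in the 12 arrays of slides 1 to 3 and between 2.08 and 4.39 in the 8 arrays of slides 4 to 6, and its log2 fold change of 0.82 had an SE of 0.72 (adjusted p = 0.709). It was the only member probe for which these ranges did not overlap, and it correlated with the brighter probe at r = -0.17.

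The sestrins, which restrain mTORC1 and limit peroxides, showed no called change. For the 3 *Sesn1* probes (chr10:41810574-41908436) the log2 fold change at 75 mg/kg/day lay between -0.22 and 0.03, and for the brightest the 95% confidence interval was -0.36 to 0.21 (adjusted p = 0.882). The sign of the dimmest *Sesn1* probe and of the dimmer *Mdm2* probe, both near 0, turned under some settings. *Sesn2* (chr4:132492804-132510456) gave 0.14 (SE 0.15, 95% confidence interval -0.16 to 0.44, adjusted p = 0.76). The brightest probes of *Sesn1* and *Sesn2* ran opposite to each other, at r = -0.661 over 20 arrays after the group means were removed. Slide differences were not removed. The median was -0.03 on slides 1 to 3 and -0.40 on slides 4 to 6 for *Sesn1*, and 0.18 and 0.52 for *Sesn2*.

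**Figure D2:**
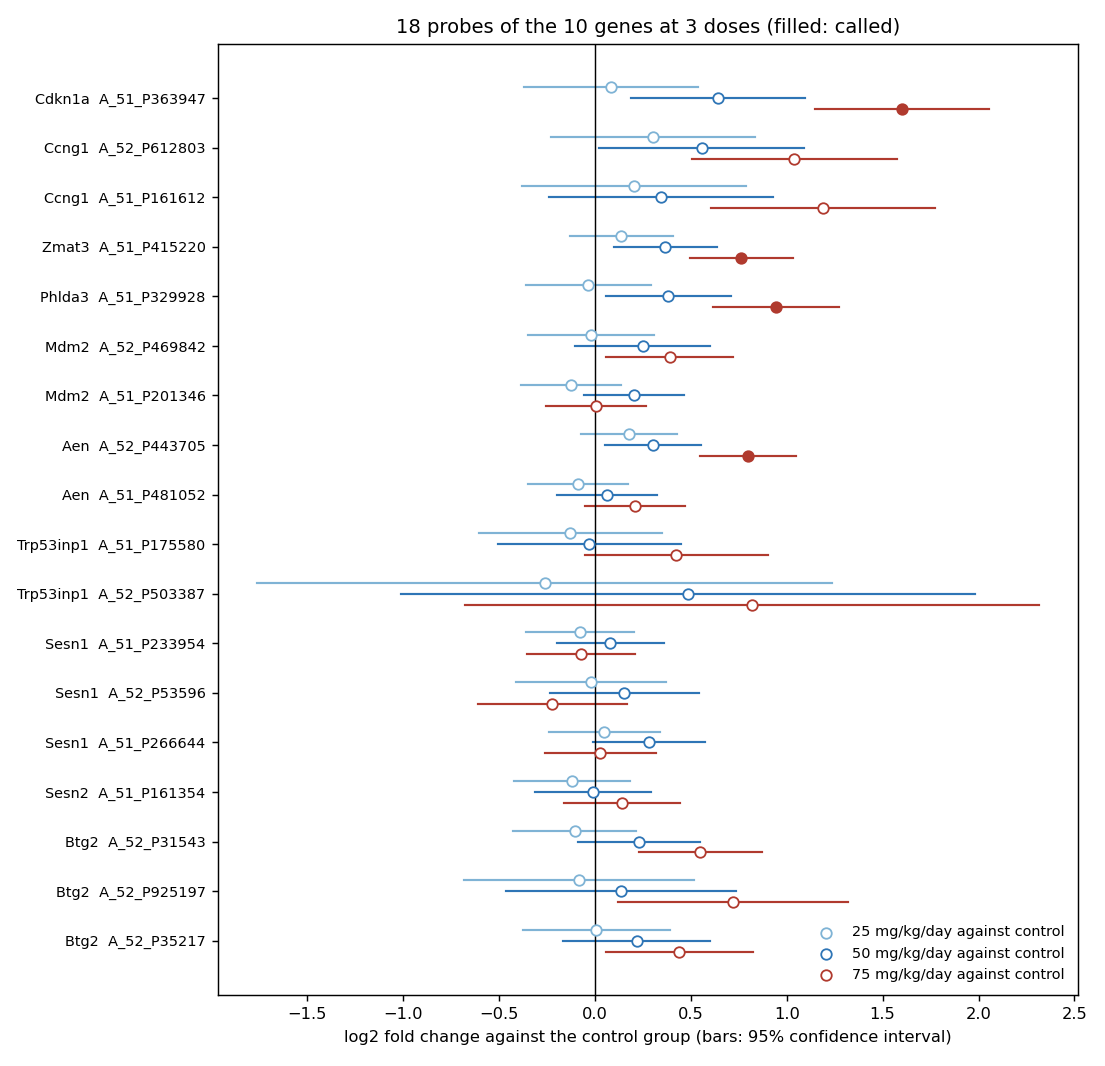
Log2 fold change against control (horizontal axis) for each of the 18 probes (rows, gene and probe name) at 25, 50 and 75 mg/kg/day, with 95% confidence intervals as bars and filled points for called values. The 4 filled points are those of *Cdkn1a* (1.60), *Phlda3* (0.94), the brighter *Aen* probe (0.80) and *Zmat3* (0.76) at 75 mg/kg/day, and the widest bars belong to the dimmer *Trp53inp1* probe.

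By dose, the 4 called genes also had a called linear trend (limma, dose as a number, 4 of 18 probes against 0.157% of all present probes), with a fitted log2 rise over the whole range of 1.61 (SE 0.23) for *Cdkn1a*, 0.97 (SE 0.17) for *Phlda3*, 0.76 (SE 0.12) for *Aen* and 0.76 (SE 0.12) for *Zmat3*. The group means ascended from control through each higher dose in 6 of the 18 probes, those of *Cdkn1a*, *Zmat3*, both *Ccng1* probes, the brighter *Aen* probe and 1 *Btg2* probe, against 4.92% of all probes. Neighboring doses gave 0 calls after adjustment, although the 95% confidence intervals of several members lay above 0. From 25 to 50 mg/kg/day all 18 probes had a log2 difference above 0 (48.2% of all probes), the median was 0.22, and 0 probes were called (adjusted p at least 0.501, 4 with an unadjusted p under 0.05 beside 8.29% of all probes). From 50 to 75 mg/kg/day 14 of 18 were above 0 (52.4% of all probes), with a median of 0.33, and again 0 were called (5 with an unadjusted p under 0.05 beside 6.91%). The step from 50 to 75 mg/kg/day was 0.96 for *Cdkn1a* (95% interval 0.51 to 1.41, limma adjusted p = 0.432), 0.56 for *Phlda3* (0.23 to 0.89, adjusted p = 0.679) and 0.50 for the brighter *Aen* probe (0.24 to 0.75, adjusted p = 0.616). These comparisons share the 50 mg/kg/day mice, and each dose shares the control mice. The step from 50 to 75 mg/kg/day depended on replicate 16: without it, *Cdkn1a* and *Aen* were called.

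Replicate 16 was the lowest of its group on 8 of the 18 probes, among them all 4 that were called at its dose. Without it the fold change of *Cdkn1a* on the log2 scale was 1.84 (adjusted p = 3.49e-05) and that of *Aen* 0.92 (adjusted p = 0.000155). The 4 calls held when any 1 of the 20 arrays was left out. Counting the brightest probe of each gene, replicate 16 lay above all controls in 6 of 10 genes, replicate 17 in 8, replicate 18 in 9, replicate 19 in 7 and replicate 20 in 6. At 50 mg/kg/day the count ran from 0 (replicate 14) to 6 (replicates 11 and 12), and at 25 mg/kg/day from 0 to 3. Such counts by mouse were not taken over all genes.

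**Figure D3:**
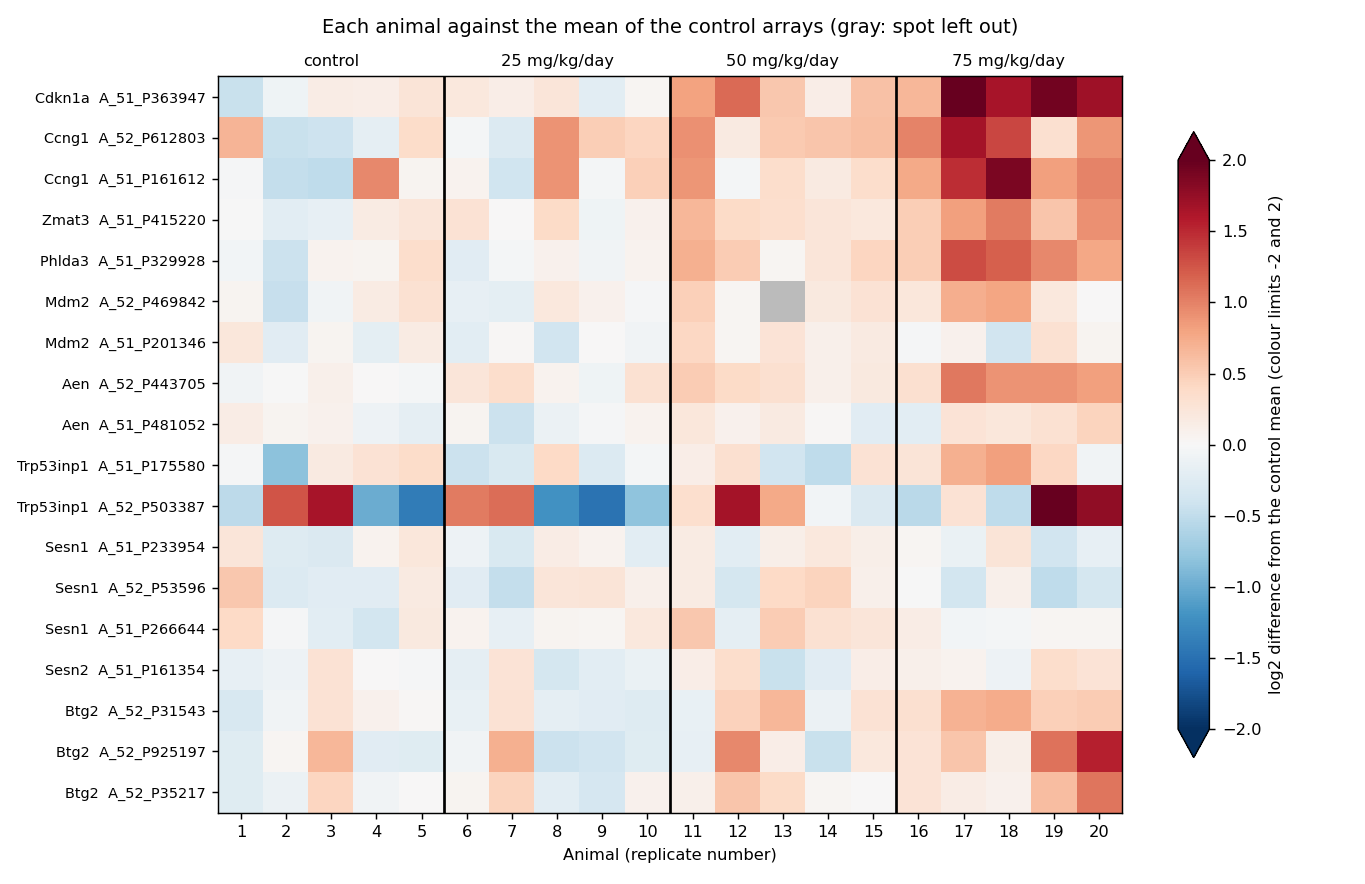
Difference of each mouse (columns, replicate numbers, grouped by dose) from the mean of the control arrays for the 18 probes (rows), in log2 units by color from blue (below) to red (above), with gray for the *Mdm2* spot that was left out. The red block at 75 mg/kg/day covers the *Cdkn1a*, *Ccng1*, *Zmat3*, *Phlda3* and brighter *Aen* rows and is palest in replicate 16 in each of them except the brighter *Ccng1* row, and the dimmer *Trp53inp1* row follows the slides.

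On the 3 slides that held all groups, *Cdkn1a* was higher at 75 mg/kg/day than in the control of the same slide by 1.94, 1.40 and 1.10 on the log2 scale, *Aen* by 1.04, 0.94 and 0.39, *Phlda3* by 1.24, 0.85 and 0.55, *Zmat3* by 0.66, 0.81 and 0.50, and the brightest *Btg2* probe by 0.61, 0.72 and 0.64. For the 4 called genes the smallest of these differences was on slide 3, the slide of replicate 16. Over the 18 probes, 16, 14 and 12 were above 0 on slides 1, 2 and 3. With these 12 arrays alone and slide as a block, 0 of 18 member probes were called while 81 probes were called in all, and the adjusted p of the 4 genes ran from 0.0606 to 0.103. With all 20 arrays and slide as a block, the 4 genes and the brighter *Ccng1* probe were called.

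**Figure D4:**
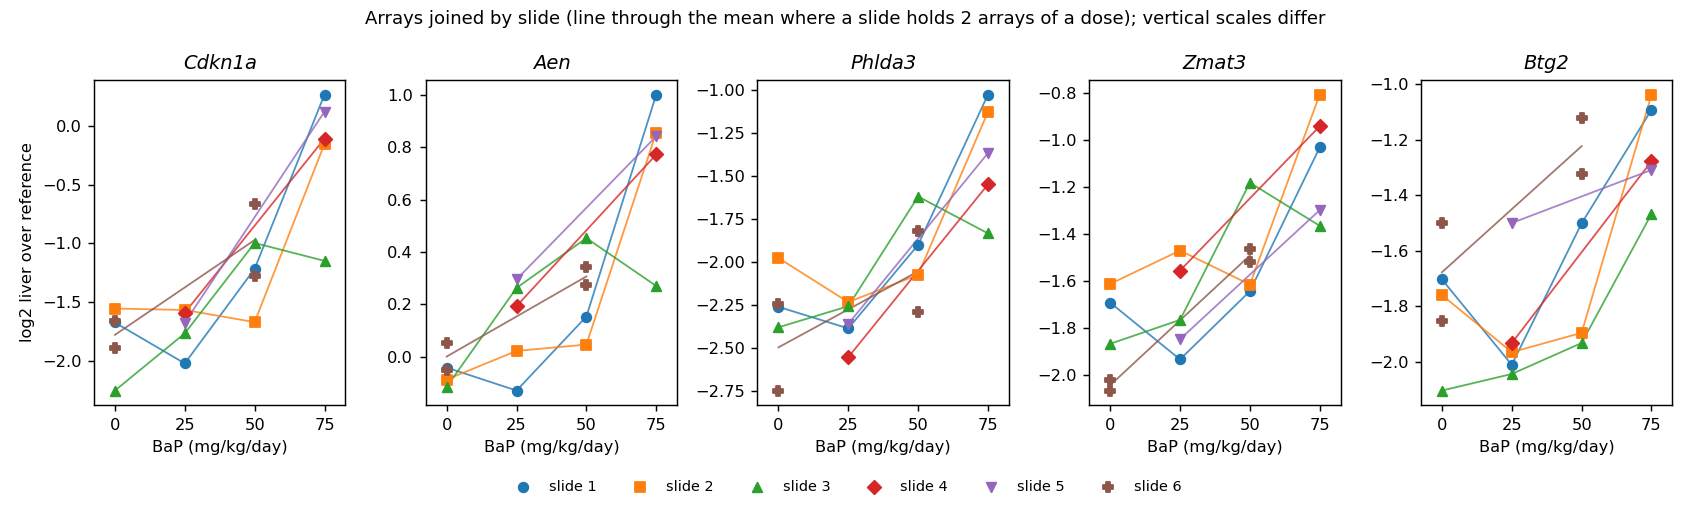
Log2 ratio of liver over reference (vertical axes, scales differ) against dose for the brightest probe of 5 genes, with the arrays of each slide joined by a line. Slides 1, 2, 4 and 5 have their highest value at 75 mg/kg/day in all 5 panels, and slide 3 ends below its 50 mg/kg/day value for *Cdkn1a*, *Aen*, *Phlda3* and *Zmat3* but not for *Btg2*.

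Some of the genes varied together between arrays of the same dose, and others did not. After the mean of each group was removed, the highest correlations between brightest probes over the 20 arrays were those of *Cdkn1a* and *Aen* (r = 0.809) and *Phlda3* and *Trp53inp1* (0.801). Next came *Phlda3* and *Mdm2* (0.782) and *Ccng1* and *Sesn1* (0.775). *Zmat3* and *Btg2* stood at -0.004, *Cdkn1a* and *Ccng1* at -0.121, and *Sesn1* and *Sesn2*, the lowest, at -0.661. These values are descriptions of arrays that share slides, and slide differences were not removed. On slides 4 to 6 the medians of *Phlda3*, *Trp53inp1*, *Mdm2*, *Ccng1* and *Sesn1* were lower than on slides 1 to 3, and those of *Cdkn1a* and *Aen* higher. Over all 20 arrays, of 17974 present probes with a symbol and a value on every array, those most like *Cdkn1a* were *Aen* (r = 0.942), *Phlda3* (0.912), *Plxna2* (0.905), *1700007K13Rik* (0.904) and *Endou* (0.894), and *Zmat3* stood 9th (0.862) and the brightest *Btg2* probe 19th (0.787). With group means removed they were *Yipf1* (0.823), *2210010C04Rik* (0.814), *Aen* (0.809), *H1f2* (0.793) and *Baiap2* (0.792).

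Of 56 further p53 targets in 3 lists, 49 genes were present by their brightest probe. At 75 mg/kg/day 3 were called higher, 0 lower and 33 lay above 0, beside 25, 1 and 6476 of 12986 genes in all. The median log2 fold change was 0.07. The 3 called genes were *Ddit4l*, an inhibitor of mTORC1 signaling (1.65, SE 0.26, adjusted p = 0.00597), *Ccnd1*, the cyclin that drives entry into the cell cycle rather than arrest (1.25, SE 0.18, adjusted p = 0.00215), and *Pltp*, a phospholipid transfer protein of plasma (0.85, SE 0.17, adjusted p = 0.0402). In each, all 5 exposed mice lay above all controls, as in 0.936% of all present probes. *Pltp* was called in 10 of the 20 fits that leave out 1 array, the other two in all 20, and with the 2 groups alone 0 of the 49 were called.

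The apoptosis list, which does not hold *Aen*, had 0 of 13 present genes called at any dose, with a median at 75 mg/kg/day of 0.03. Its largest values were those of *Bax* (0.40, adjusted p = 0.552), *Apaf1* (0.31, adjusted p = 0.419) and *Tnfrsf10b*, a death receptor (0.21, adjusted p = 0.542, well above background on 7 of 20 arrays). The repair and damage response list had 0 of 10 called and a median of 0.00, led by the translesion polymerase gene *Polk* (0.67, SE 0.21, adjusted p = 0.237), with *Ddb2* at -0.18. *Trp53* itself had 0.46 (SE 0.15, adjusted p = 0.266), *Trim24* 0.42 and *Ep300* 0.27, and 0 of 12 present genes for p53 and its regulators were called. Of 13 genes from the same families as the members, 0 were called, with *Phlda2* at 0.50 (adjusted p = 0.231), *Phlda1* at 0.50 and *Cdkn1b* at 0.36. For *Phlda2* 5 of 5 mice lay above all controls, as in 0.936% of all present probes. At 75 mg/kg/day the median was thus 0.66 (log2) over the brightest probes of the 10 genes and between -0.04 and 0.28 in the 5 other lists. No difference between lists was tested.

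**Figure D5:**
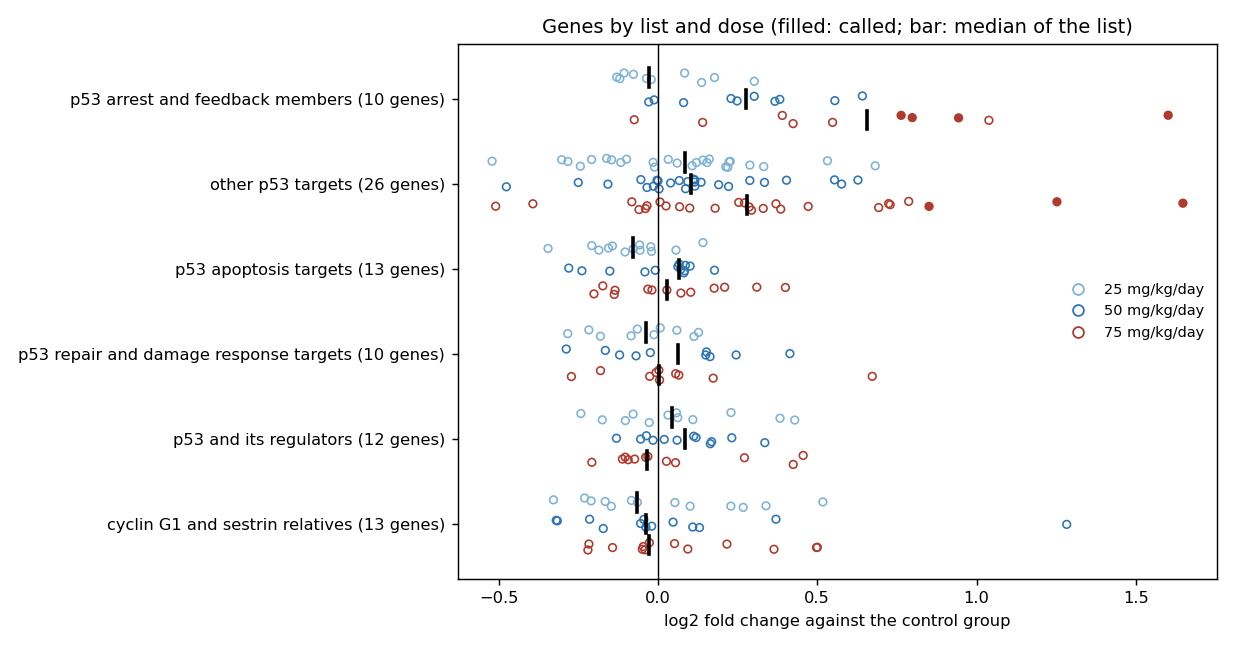
Log2 fold change against control (horizontal axis) of the brightest present probe of each gene, by list (rows) and dose (color), with black bars for the median of the list and filled points for called genes. At 75 mg/kg/day the median of the 10 genes is 0.66 and that of the 26 other p53 targets 0.28, and those of the remaining lists lie between -0.04 and 0.03.

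Gene groups defined by other responses were read beside these lists, although they are not separate from p53: *Dusp1* stands in both the immediate early list and the list of other p53 targets. Of 12 immediate early genes 0 were called at 75 mg/kg/day, with *Egr1* at 1.53 (SE 0.41, adjusted p = 0.171), *Junb* at 0.83 (SE 0.27, adjusted p = 0.271) and *Zfp36* at 0.45. *Egr1*, *Junb* and *Fos* (0.42, adjusted p = 0.314) were above all controls in 5 of 5 mice, as were 0.936% of all present probes. The 12 genes of the amino acid and ER stress response (*Fgf21* -0.46, *Sdf2l1* -0.42, *Xbp1* 0.31), 15 mitosis and replication genes (*Mcm6* 0.33, *Cdc20* 0.32, *Bub1* -0.20) and 11 clock genes (*Dbp* 0.88, *Nr1d1* 0.74, *Tef* 0.55) had 0 called at any dose. Of the markers of other liver cells, 9 of 10 Kupffer cell markers had a log2 fold change above 0 at 75 mg/kg/day, beside 6476 of 12986 genes in all. *Marco* was called (2.19, adjusted p = 0.00148), but the median was 0.14 and *Csf1r* stood at -0.30. Of 11 endothelial markers 10 were above 0 (median 0.34), with *Lyve1* called (2.23, adjusted p = 0.0189). Of 10 stellate and fibroblast markers 6 were above 0 (median 0.34) and 0 were called, with *Dcn* at 0.80 (adjusted p = 0.188). Of 4 neutrophil markers present 2 were above 0 (median 0.16) and 0 were called, with *S100a9* at 1.34 (adjusted p = 0.188) and above all controls in 4 of 5 mice. Markers of other cell types did not lean upward. Of 6 bile duct markers present 3 were above 0 (median -0.05), and of 4 B cell markers 2 were (median 0.00). Of 6 T and NK cell markers 3 were above 0 (median -0.06), and 0 markers in these lists were called. The log2 of the summed liver intensity ran from 13.19 to 13.95 in controls and 13.04 to 15.09 at 75 mg/kg/day for Kupffer markers, and from 13.24 to 14.03 and 13.44 to 14.86 for endothelial markers. It ran from 13.9 to 14.85 and 14.0 to 15.33 for stellate and fibroblast markers. For neutrophil markers it ran from 9.29 to 10.17 and 10.21 to 11.47, where every mouse at 75 mg/kg/day lay above every control. These summed intensities were not normalized between arrays. The normalized mean log2 ratios of the neutrophil markers overlapped, at 0.46 to 0.98 in controls and 0.54 to 1.42 at 75 mg/kg/day. The 9 hepatocyte markers present were all above 0 as well (median 0.37) and 0 were called. Their normalized mean log2 ratios at 75 mg/kg/day, 5.34 to 5.64, lay within the range of the controls, 4.65 to 5.82. The part of cell makeup in the rise of the p53 targets was not tested, and in bulk liver more cells of a type and more RNA per cell cannot be told apart.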

How the data were processed

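Liver mRNA of 20 mice was measured on two-color Agilent arrays, 4 per slide. The intensities deposited by the authors are the median brightness of each spot and of its surroundings in both channels, as the scanner software gave them. The log2 ratios in the value table deposited by the authors carry their LOWESS normalization. The software's deposited marks (well above background, outlier) were used as given.

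Median intensities were corrected by normexp (offset 50) and loess-normalized array by array. Spots marked as outliers were dropped, and replicate spots of a probe were averaged as log2 ratios. Per array these ratios correlated with those deposited at r of 0.994 to 0.996. Presence followed the study's methods, which ask for a liver signal over the 5% trimmed mean of the negative controls (153 spots) by 3 trimmed SDs on at least 4 arrays of 1 group. A single limma model of all 20 arrays gave each dose against control, with Benjamini-Hochberg adjustment over the 27346 present probes. Calls required an adjusted p under 0.05 together with a change of over 1.5-fold, and a second model took dose as a number. The methods' MAANOVA test was not used here. The study left out an array without saying which, and none was left out here.

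Probes were named through RefSeq accessions (23374 probes). Every probe of the 10 genes is reported. Named from every other p53, relative and context list are its called genes and the 3 of largest change at 75 mg/kg/day by the brightest present probe. *Fos* is named as well, since its mice at that dose all lay above the controls. Marker lists are given by examples, and the 5 probes most like *Cdkn1a* are named. The members and lists were chosen with earlier results of these data known. The series description gives 24 mg/kg for the lowest dose, and the 25 mg/kg of the sample labels was used. Precision is limited by the number of arrays, and p-values measure the spread between mice.

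Alternatives were no background correction, the processed intensities, the deposited log2 ratios, the liver channel alone, no presence filter or a stricter one, slide as a block, the 2 groups alone, no fold limit and each array left out. Slides 1 to 3 alone was added after the data were seen. The fits were tested on simulated data. The tools were R 4.3.3 with limma 3.58.1 and data.table (version 1.17.8), and Python 3.11.15 with pandas 2.3.3 and matplotlib 3.10.9.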

Additional observations from a re-analysis of the deposited data

Results flagged for a closer look

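In 2 of 72 groups (18 probes at 4 doses, each of 5 arrays except 4 for the brighter *Mdm2* probe at 50 mg/kg/day) 1 mouse stood apart from the rest of its group by Dixon's ratio, where chance marks about 1 in 20 groups. For the brightest *Sesn1* probe at 50 mg/kg/day, replicate 12 was the lowest, at -0.37 against -0.05 in the nearest mouse (ratio 0.751). For the brightest *Btg2* probe at 25 mg/kg/day, replicate 7 was the highest, at -1.50 against -1.93 in the nearest mouse (ratio 0.795).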

How the results depend on the processing

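The count of 4 member probes called at 75 mg/kg/day was 4 under 7 alternatives and 5 with slide as a block. It was 0 with the 2 groups alone and 0 with slides 1 to 3 alone, an alternative chosen after the data were seen. The liver channel alone also called 4, with the brighter *Ccng1* probe in place of *Cdkn1a*. The 49 other p53 targets gave 5 calls in the liver channel alone and 0 with the 2 groups alone, against 3. Leaving out 1 array gave 4 to 5 member calls at 75 mg/kg/day, 2 to 4 among the other targets, 4 to 5 for the trend, 0 to 2 from 50 to 75 mg/kg/day (2 without replicate 16) and 0 in every case for the remaining comparisons.

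Signs turned only for probes near 0. The dimmest *Sesn1* probe (0.0272) read -0.0457 without background correction, -0.0434 with the processed signals, -0.0546 with the deposited ratios, -0.0237 with slide as a block, -0.0559 on slides 1 to 3 and -0.0647 to 0.1275 with 1 array left out. The dimmer *Mdm2* probe (0.0057) read -0.01 with the deposited ratios, -0.1051 with slide as a block, -0.1675 on slides 1 to 3 and -0.0677 to 0.1038 with 1 array left out. The brightest *Sesn1* probe (-0.0745) read 0.0371 in the liver channel alone and -0.1568 to 0.0012 with 1 array left out. The causes were not tested.

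No paired analysis was possible because no replicate number occurs in more than 1 group. Slides did hold several groups, and the fits with slide as a block are those given above.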
